A study of Mus musculus with 36 samples.

Results

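Activating transcription factor 4 (ATF4) and 8 genes that act with it in the integrated stress response were followed across brain, heart, kidney and liver of mice with acute endotoxin inflammation. The 9 genes, listed by name, were Atf4, Asns, Psat1, Phgdh, Chac1, Ddit3, Trib3, Ppp1r15a and Sesn2. A probe was named for 8 of them, among 12394 genes with a named probe, and Phgdh had none. Each of the 8 had exactly 1 probe, and that of Ppp1r15a carries the gene's older symbol Myd116. Measured were 7 of the 9 genes in brain (of 10139 genes), 7 in heart (of 9519), 7 in kidney (of 9472) and 5 in liver (of 8471). Atf4, Chac1, Ddit3 and Ppp1r15a had values in all 4 tissues, Asns and Sesn2 in brain, heart and kidney, Psat1 in brain and kidney, and Trib3 in heart and liver.

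The animals were female transgenic FVB mice, 6 to 8 weeks old, that were imaged for luciferase, and every group carried the transgene, whose promoter was not given in the sources used here. In each tissue 3 groups of 3 one-colour arrays were compared, giving 36 arrays in 12 groups: LPS plus genipin, LPS, and mock. LPS, a bacterial outer membrane component that activates Toll-like receptor 4, was injected into the peritoneum at 4 mg/kg, genipin, an iridoid from gardenia fruit, followed 10 min later, and tissues were taken 4 h after that, while mock mice had no treatment. The design names genipin at 1, 10 and 100 mg/kg; the dose behind the arrays was not given in the sources used here. They do not say whether the 3 arrays of a group are separate mice either, so p-values measure the spread between these arrays only.

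In the integrated stress response, kinases that sense amino acid shortage, unfolded protein in the endoplasmic reticulum (ER), viral RNA or haem loss phosphorylate the initiation factor eIF2. General translation then slows while the Atf4 messenger, through upstream open reading frames, is translated more, so ATF4 protein is set largely after transcription and these arrays, which measure RNA, do not report it. ATF4 pairs with C/EBP proteins at a composite element and turns on enzymes of amino acid synthesis (Asns, Psat1, Phgdh), transporters and tRNA synthetases. It also turns on the glutathione-degrading enzyme Chac1, the factor Ddit3 (CHOP), the pseudokinase Trib3, the stress sensor Sesn2 and, as feedback, Ppp1r15a (GADD34), which directs a phosphatase to eIF2 and restores translation.

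Promoter windows of 250 bases before to 50 after the annotated start, from RefSeq on build GRCm38.p6, were matched for all 9 genes (10 windows, since Psat1 has more than 1 start). The composite core TGATGNAA, searched on both strands, lay in 3 of these 10 windows and in 3.97% of 32851 mouse promoters. Its matches were TGATGAAA in Asns (first base at position -23 from the start), TGATGCAA on the other strand of Chac1 (position -193) and TGATGTAA on the other strand of Trib3 (position 15). The shorter letters CCACG, from the ER stress element, were found on either strand in 8 of the 10 windows, against 32.8% of all promoters, and the cyclic AMP element TGACGTCA in 1, that of Ppp1r15a, against 1.79%. A match is a description of letters, not a shown site. Stretches around the 3 matches of the composite core or the cyclic AMP element that lie before the start are printed below. They are in the gene's own direction, with the matched letters in capitals. Among the 10 windows they were picked by the matches alone, but the 9 genes themselves were chosen with earlier results of these data known. Asns is at chr6:7693210-7693272 on the minus strand, Chac1 at chr2:119351009-119351096 on the plus strand, where the match reads as the reverse complement of the core, and Ppp1r15a at chr7:45526269-45526320 on the minus strand.
Asns: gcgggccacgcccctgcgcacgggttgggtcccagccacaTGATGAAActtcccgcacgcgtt
Chac1: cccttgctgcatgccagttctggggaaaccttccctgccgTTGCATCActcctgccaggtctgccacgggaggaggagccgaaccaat
Ppp1r15a: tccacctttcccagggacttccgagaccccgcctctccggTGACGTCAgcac

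Values are deposited intensities with nearly the same distribution on all arrays of a tissue, so a level is not compared between tissues. Between genes, a level is given only as a percentile of probe brightness within a tissue, not as an amount of RNA. Differences are given as log2 differences ± SE between group means of 3 arrays, from limma, with p-values adjusted over all genes measured there, and a gene is said to rise or fall where that p is below 0.05. Arrays of a group correlated at 0.985 to 0.998. Defining markers of each organ were strong: ventricular myocyte genes (6 of 6 measured) summed to 389163 to 392903 on the heart arrays, hepatocyte genes (6 of 7) to 378957 to 392906 in liver, proximal tubule genes (6 of 6) to 223858 to 259284 in kidney and neuronal genes (4 of 6) to 177092 to 198915 in brain. The ventricular and hepatocyte genes were at or near saturation (60000), so their sums say little about changes between groups. Proximal tubule sums were 223858 to 225629 with LPS plus genipin, 232142 to 237167 with LPS and 235648 to 259284 in mock. Of those 6 genes, 3 were lower and 0 higher with LPS plus genipin than in mock. Markers of other cells also moved with the groups, and several of these lists are given with their tissue. In whole tissue, fewer cells of a type and less RNA per cell cannot be told apart.

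After LPS the genes rose together in kidney and liver, rose in part in heart, where Ddit3 fell, and in brain Ppp1r15a alone passed the test. Against mock, LPS raised 7 of 7 measured members in kidney, where 25.2% of all genes rose and 39.2% fell. In liver 5 of 5 rose, against 29.3% of all genes higher and 37.1% lower. In heart 4 of 7 rose and 1 fell, beside 18.2% and 29.1% of all genes. In brain 1 of 7 rose and 0 fell, beside 16.4% and 17.5%. The median log2 difference of the measured members was 1.48 in kidney, 1.40 in liver, 0.67 in heart and 0.11 in brain, and over all genes it was -0.09, -0.03, -0.06 and 0.00.

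With genipin after LPS the members split. Against LPS alone, 1 of 7 rose and 4 fell in heart, beside 22.1% of all genes higher and 19.9% lower. In kidney 1 of 7 rose and 4 fell, beside 32.1% and 22.6%. In liver 1 of 5 rose and 2 fell, beside 29.5% and 24.5%. In brain 0 of 7 rose and 2 fell, beside 16.3% and 13.8%. The brain fall of Atf4 passed narrowly and was lost with the replicate number of the arrays as a block. The gene that rose was Ddit3 in heart, Chac1 in kidney and Ppp1r15a in liver. The median log2 difference of the members was -0.51 in heart, -0.23 in kidney, -0.06 in liver and -0.08 in brain, beside 0.03, 0.04, 0.03 and 0.01 over all genes. Both comparisons use the same LPS arrays, so a change in one is tied to the opposite change in the other, and the 3 groups are given side by side for each gene.

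**Figure D1:**
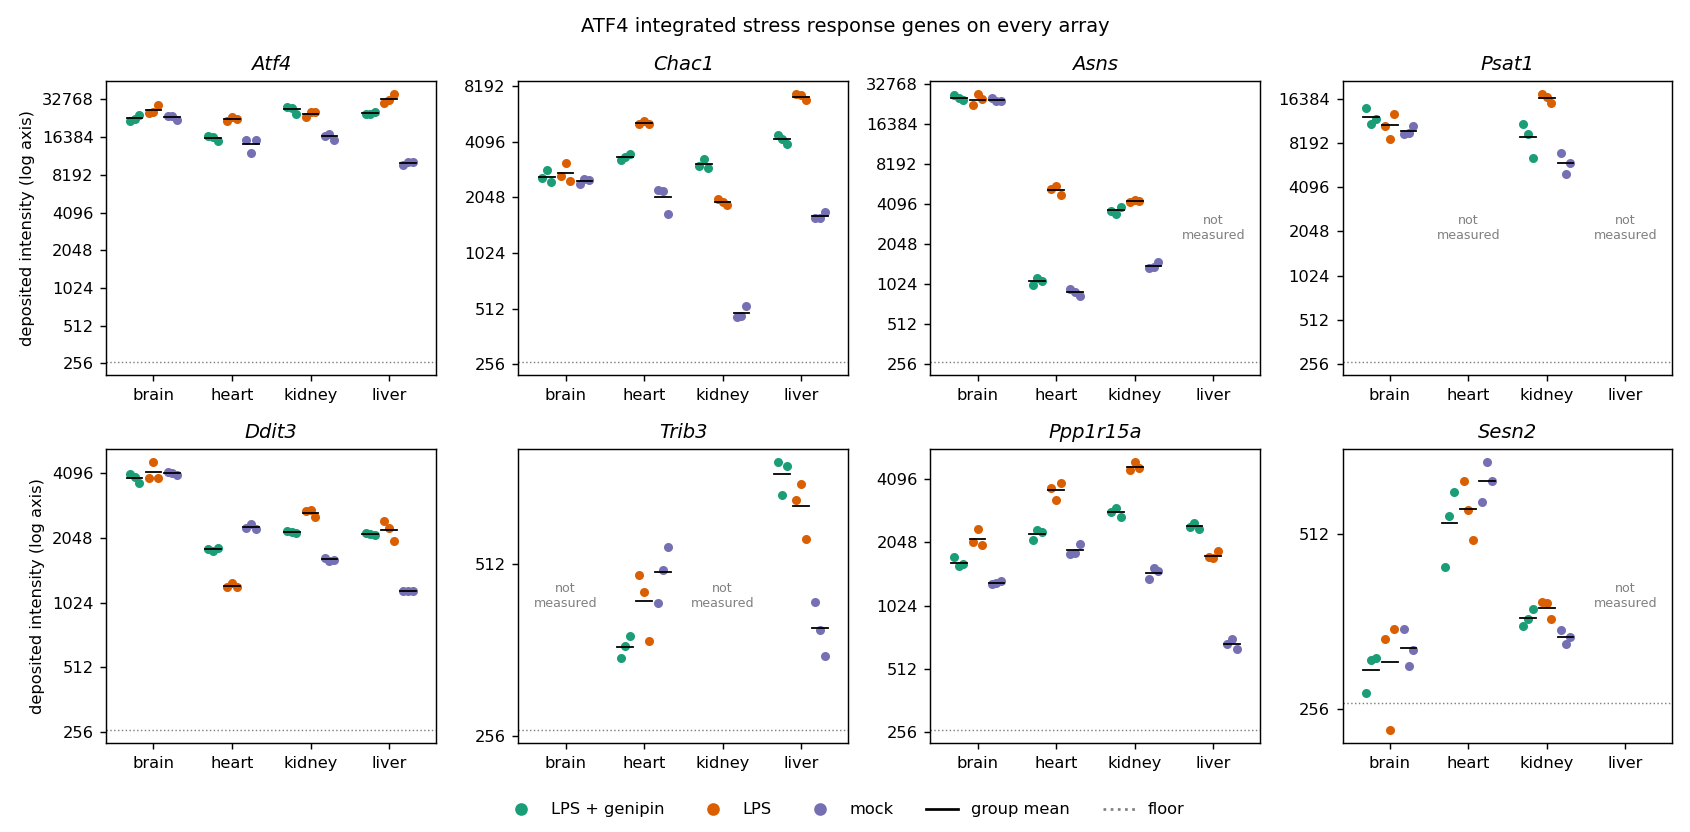
Deposited intensity (log axis) of 8 ATF4 pathway genes on every array of brain, heart, kidney and liver, with LPS plus genipin, LPS and mock from left to right, black lines at group means and a dotted line at the floor of 263. Asns stood between 4793 and 5638 on the heart LPS arrays and at most at 1135 on the other heart arrays, and Chac1 in kidney was brightest with LPS plus genipin.

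Atf4 encodes the transcription factor itself. In liver it read 25223, 24899 and 25863 with LPS plus genipin, 30568, 32651 and 35877 with LPS, and 9772, 10335 and 10308 in mock. No arrays of different groups overlapped there: LPS was highest and mock lowest. LPS raised Atf4 by 1.70 ± 0.06 over mock in liver (3.25-fold, adjusted p = 1.87e-07), and LPS plus genipin stood 0.38 ± 0.06 below LPS (log2 difference -0.38, adjusted p = 0.00159), still 2.50-fold above mock.

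In heart Atf4 read 16862, 16430 and 15152 with LPS plus genipin, 21932, 23760 and 23036 with LPS, and 15599, 12137 and 15644 in mock. The LPS arrays lay above both other groups, which overlapped each other. The log2 difference was 0.67 ± 0.10 for LPS against mock (adjusted p = 0.00104) and -0.51 ± 0.10 for LPS plus genipin against LPS (adjusted p = 0.00554). In kidney, by contrast, the values were 28636, 27849 and 25228 with LPS plus genipin, 23614, 26204 and 25892 with LPS, and 16702, 17436 and 15554 in mock. Both treated groups lay above mock and overlapped each other: LPS rose by 0.61 ± 0.07 over mock (adjusted p = 0.000119), and LPS plus genipin differed from LPS by 0.11 ± 0.07, with an interval of -0.05 to 0.27 (adjusted p = 0.21).

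In brain Atf4 read 21880, 22990 and 24451 with LPS plus genipin, 25463, 25839 and 29314 with LPS, and 23928, 24142 and 22605 in mock. The LPS arrays lay above both other groups, which overlapped each other. Against mock, LPS differed by 0.19 ± 0.07 and did not pass (adjusted p = 0.0722). LPS plus genipin was 0.22 ± 0.07 below LPS (log2 difference -0.22) and passed narrowly, at an adjusted p of 0.0494. Same-numbered brain arrays of these groups deviated together, and with the replicate number as a block the adjusted p was 0.0636, which leaves 1 brain gene called in place of 2. The call also ended under 6 other settings, at adjusted p of up to 0.114, and on leaving out LPS array 2 or 3 or LPS plus genipin array 1 or 2.

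Asns makes asparagine from aspartate and glutamine and is a classic ATF4 target. In heart it read 997, 1135 and 1076 with LPS plus genipin, 5308, 5638 and 4793 with LPS, and 932, 890 and 826 in mock. The LPS arrays stood far above every other heart array. LPS raised it 5.94-fold over mock (log2 difference 2.57 ± 0.08, adjusted p = 1.19e-07), and with LPS plus genipin it was 4.90-fold lower than with LPS (-2.29 ± 0.08, adjusted p = 6.58e-07).

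Some markers of other cells were highest on those heart LPS arrays and others lowest. Atrial myocyte genes (2 of 4 measured, Myl7 and Myl4) summed to 3238 to 3322 with LPS plus genipin, 126373 to 130967 with LPS, where both were saturated, and 3983 to 4358 in mock. Adipocyte genes (3 of 6) summed to 17222 to 24770 with LPS plus genipin, 85686 to 97584 with LPS and 12593 to 17858 in mock. Within that list Adipoq and Cfd were higher with LPS than in either other group, whereas Fabp4 differed by 0.40 between LPS and mock and by -0.01 between LPS plus genipin and LPS, neither passing. Neutrophil genes (3 of 8) summed to 16747 to 18012 with LPS plus genipin, 39892 to 45109 with LPS and 2284 to 2488 in mock. Lowest with LPS were endothelial genes (7 of 8), which summed to 35809 to 38328 with LPS plus genipin, 31753 to 32305 with LPS and 44897 to 49120 in mock. Of these endothelial genes, 1 was higher and 4 lower with LPS than in mock. Monocyte and macrophage genes (6 of 8) summed to 17221 to 18805 with LPS plus genipin, 12842 to 13793 with LPS and 18058 to 19700.4 in mock. Within this list 1 gene was higher and 3 lower with LPS than in mock. Skeletal muscle genes (4 of 6) summed to 125860 to 128922 with LPS plus genipin, 103478 to 107365 with LPS and 126617 to 131082 in mock. That list was split: 1 gene was higher and 1 lower with LPS than in mock, with a median log2 difference of 0.00. Between LPS plus genipin and LPS, 1 was higher and 1 lower as well. No measured gene of the atrial, adipocyte, neutrophil, endothelial, and monocyte and macrophage lists lay at the floor throughout a group, and the part of all these lists in the heart values of Asns and the other members was not tested.

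In kidney Asns read 3655, 3454 and 3890 with LPS plus genipin, 4223, 4388 and 4287 with LPS, and 1344, 1366 and 1490 in mock. No groups overlapped, and both treated groups stood well above mock. LPS raised it 3.07-fold over mock (1.62 ± 0.06, adjusted p = 1.54e-07), and LPS plus genipin was lower than LPS by a log2 difference of -0.23 ± 0.06 (adjusted p = 0.00958). In brain Asns was bright, in the 94.6th percentile of that tissue, and no difference passed: its 9 arrays spanned 22751 to 27548, and LPS differed from mock by 0.01, with an interval of -0.16 to 0.18.

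Psat1 catalyses a step of serine synthesis. In kidney it read 11172, 9511 and 6501 with LPS plus genipin, 17652, 17072 and 15447 with LPS, and 7072, 5046 and 6018 in mock. The LPS arrays lay above the rest, while LPS plus genipin array 3 fell among the mock arrays. LPS raised Psat1 2.79-fold over mock (1.48 ± 0.20, adjusted p = 0.000346), and LPS plus genipin was 1.89-fold lower than LPS (-0.92 ± 0.20, adjusted p = 0.00552). Between LPS plus genipin and mock the difference was 0.56 ± 0.20 and just missed the threshold (adjusted p = 0.0522). It passed without array 3 of the LPS plus genipin group (0.78, adjusted p = 0.00619), without mock array 1 (0.68, adjusted p = 0.0454) and under 6 other settings. In brain the 9 arrays of Psat1 spanned 8709 to 14219 and no difference passed.

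Chac1 cleaves glutathione in the cytosol and is induced downstream of ATF4. In kidney it read 3012, 3320 and 2968 with LPS plus genipin, 2004, 1921 and 1863 with LPS, and 462, 468 and 531 in mock. All 3 groups were apart, and the brightest was LPS plus genipin. LPS raised it 3.97-fold over mock (1.99 ± 0.07, adjusted p = 1.35e-07), and LPS plus genipin stood a further 1.61-fold above LPS (0.68 ± 0.07, adjusted p = 0.000104), so that it was 6.37-fold above mock.

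In liver Chac1 read 4442, 4217 and 3989 with LPS plus genipin, 7392, 7327 and 6886 with LPS, and 1582, 1573 and 1708 in mock. Here the order was different, with LPS highest. LPS raised Chac1 4.44-fold over mock (2.15 ± 0.06, adjusted p = 3.85e-08), and LPS plus genipin was 1.71-fold lower than LPS (-0.77 ± 0.06, adjusted p = 2.84e-05). In heart it read 3259, 3404 and 3498 with LPS plus genipin, 5137, 5327 and 5134 with LPS, and 2248, 2224 and 1663 in mock. The heart groups kept the order seen in liver: the log2 difference was 1.36 ± 0.11 for LPS against mock (adjusted p = 3.03e-05) and -0.62 ± 0.11 for LPS plus genipin against LPS (adjusted p = 0.00296). The brain arrays of Chac1 spanned 2421 to 3150 with no difference that passed.

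The kidney arrays with LPS plus genipin also carried more signal of connective, fat, muscle, macrophage and liver genes. Fibroblast and pericyte genes (8 of 8) summed to 57230 to 58118 with LPS plus genipin, 35724 to 36171 with LPS and 37796 to 39280 in mock. Adipocyte genes (4 of 6) summed to 57241 to 63977 with LPS plus genipin, 38989 to 43032 with LPS and 30497 to 32183 in mock. Skeletal muscle genes (2 of 6) summed to 3691 to 3881 with LPS plus genipin, 943 to 1049 with LPS and 750 to 906 in mock. The macrophage and hepatocyte lists were both highest with LPS plus genipin and lowest in mock. Monocyte and macrophage genes (6 of 8) summed to 14467 to 15161 with LPS plus genipin, 11418 to 11591 with LPS and 10344 to 10865 in mock. Within this list 4 genes were higher and 2 lower with LPS plus genipin than with LPS. Genes of the hepatocyte list (4 of 7) summed to 58712 to 64844 with LPS plus genipin, 49039 to 54078 with LPS and 20638 to 27989 in mock, where Apoa1 lay at the floor. Endothelial genes (7 of 8) were lowest with LPS, at 20311 to 21792 with LPS plus genipin, 17757 to 18626 with LPS and 24153 to 24876 in mock. Of these endothelial genes, 1 was higher and 4 lower with LPS than in mock. The single measured neutrophil gene of 8, S100a9, read 4481 to 4504 with LPS plus genipin, 4372 to 6317 with LPS and 248 to 363 in mock. None of the connective, fat and muscle markers lay at the floor throughout a group, and the part of any of these lists in the kidney values of the members was not tested.

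Ddit3 encodes CHOP, a C/EBP-family factor linked to cell death under prolonged ER stress. In heart it moved against Atf4, Asns, Chac1 and Ppp1r15a: it read 1812, 1785 and 1838 with LPS plus genipin, 1205, 1256 and 1205 with LPS, and 2281, 2374 and 2258 in mock. The groups did not overlap, and LPS was the lowest. With LPS it was 1.89-fold lower than in mock (log2 difference -0.91 ± 0.05, adjusted p = 2.26e-06), and LPS plus genipin was 1.48-fold above LPS (0.57 ± 0.05, adjusted p = 5.49e-05) yet below mock (-0.35 ± 0.05, adjusted p = 0.0022).

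In kidney Ddit3 read 2211, 2186 and 2144 with LPS plus genipin, 2712, 2759 and 2547 with LPS, and 1654, 1598 and 1618 in mock. The order was the reverse of that in heart, with LPS highest and mock lowest. LPS rose by 0.72 ± 0.04 over mock (adjusted p = 2.13e-06), and LPS plus genipin stood at -0.29 ± 0.04 from LPS (adjusted p = 0.00051). In liver it read 2145, 2125 and 2105 with LPS plus genipin, 2450, 2265 and 1976 with LPS, and 1165, 1164 and 1158 in mock. Both treated groups stood above mock, by 0.87 ± 0.07 and 0.94 ± 0.07 for LPS plus genipin and LPS (adjusted p = 2.66e-05 and 1.31e-05), and they overlapped each other, with a difference of -0.06 and an interval of -0.24 to 0.11. That difference passed, at -0.15 and an adjusted p of 0.0349, only when LPS array 3 was left out. In brain the arrays of Ddit3 spanned 3686 to 4581 with no difference that passed.

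**Figure D2:**
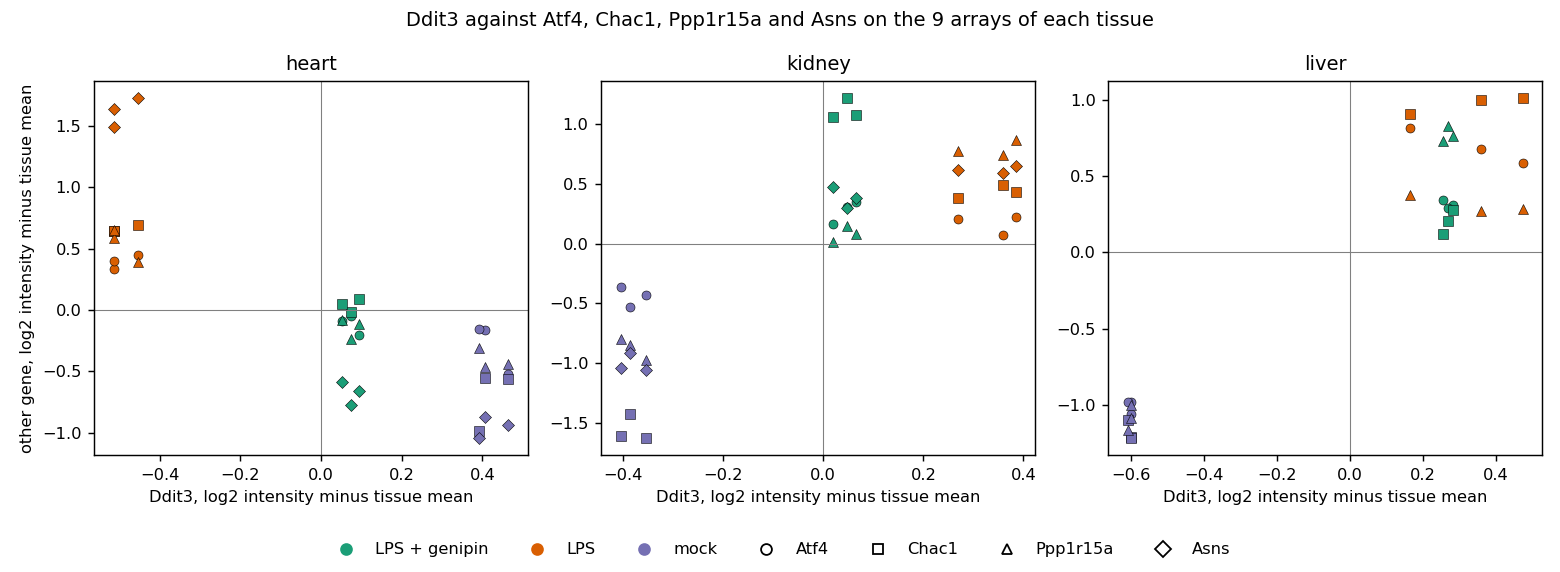
Log2 intensity of Atf4, Chac1, Ppp1r15a and Asns (y axis, each minus its tissue mean, marker shapes) against that of Ddit3 (x axis, minus its tissue mean) on the 9 arrays of heart, kidney and liver, coloured by group, with Asns not measured in liver. In heart the LPS arrays sit low in Ddit3 and high in the other 4 genes, whereas in kidney and liver the mock arrays sit low in all genes shown.

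Trib3, a pseudokinase that binds ATF4 and CHOP and dampens them, was dim, at the 11th percentile in heart and the 22.6th in liver. In liver it read 769, 674 and 758 with LPS plus genipin, 661, 705 and 566 with LPS, and 439, 392 and 353 in mock. Both treated groups lay above mock and overlapped each other. LPS rose by 0.71 ± 0.11 over mock (adjusted p = 0.000643), and LPS plus genipin differed from LPS by 0.19, with an interval of -0.06 to 0.44. In heart it read 350, 367 and 383 with LPS plus genipin, 490, 457 and 376 with LPS, and 438, 499 and 547 in mock. The heart difference between LPS plus genipin and LPS was -0.26 ± 0.12 and did not pass (adjusted p = 0.108), but it was -0.37 with an adjusted p of 0.0231 when LPS array 3 was left out. Against mock, LPS plus genipin was lower (-0.43 ± 0.12, adjusted p = 0.0361); this call was lost on leaving out mock array 2 or 3 or any LPS plus genipin array, at adjusted p of 0.0644 to 0.113.

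Ppp1r15a, the eIF2 phosphatase regulator, was the member that LPS raised in every tissue. In kidney it read 2851, 2989 and 2718 with LPS plus genipin, 4509, 4922 and 4606 with LPS, and 1370, 1552 and 1494 in mock. The groups were apart, with LPS plus genipin in between. LPS raised it 3.18-fold over mock (1.67 ± 0.06, adjusted p = 2.02e-07), and LPS plus genipin was 1.64-fold lower than LPS (-0.71 ± 0.06, adjusted p = 4.72e-05).

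In heart it read 2112, 2345 and 2298 with LPS plus genipin, 3727, 3258 and 3905 with LPS, and 1794, 1832 and 2001 in mock. The order was that of kidney, with a log2 difference of 0.95 ± 0.08 for LPS against mock (adjusted p = 4.8e-05) and -0.69 ± 0.08 for LPS plus genipin against LPS (adjusted p = 0.000409). In brain it read 1739, 1579 and 1610 with LPS plus genipin, 2053, 2366 and 1980 with LPS, and 1297, 1320 and 1336 in mock. Again no arrays of different groups overlapped: LPS was 0.69 ± 0.07 above mock (adjusted p = 0.000346) and LPS plus genipin -0.37 ± 0.07 from LPS (adjusted p = 0.00709). Its brain difference between LPS plus genipin and mock, 0.32 ± 0.07 (adjusted p = 0.0246), was lost on leaving out any 1 of the 6 arrays, at adjusted p of 0.052 to 0.0899.

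Liver gave Ppp1r15a another order. It read 2423, 2543 and 2376 with LPS plus genipin, 1743, 1724 and 1856 with LPS, and 671, 712 and 636 in mock. LPS plus genipin was the highest of the 3 groups. LPS rose 2.64-fold over mock (1.40 ± 0.06, adjusted p = 3.25e-07), and LPS plus genipin was 1.38-fold above LPS (0.46 ± 0.06, adjusted p = 0.000368). On the same liver arrays neutrophil genes (2 of 8, S100a8 and S100a9) summed to 57212 to 62162 with LPS plus genipin, 80909 to 86197 with LPS and 3598 to 3856 in mock, and monocyte and macrophage genes (6 of 8) to 14862 to 15800 with LPS plus genipin, 12271 to 12566 with LPS and 14808 to 16039 in mock. The monocyte and macrophage list was split: 2 genes were higher and 3 lower with LPS than in mock. Between LPS plus genipin and LPS, 4 were higher and 1 lower. Fibroblast and pericyte genes (6 of 8) summed to 28759 to 29729 with LPS plus genipin and 23343 to 28197 with LPS. In mock they summed to 27874 to 32373. Against mock, LPS lowered 4 and raised 0 of them. LPS plus genipin stood higher than LPS in 4 and lower in 0. Endothelial genes (6 of 8) summed to 6127 to 6629 with LPS plus genipin and 6611 to 6776 with LPS. In mock they summed to 9027 to 9933, and 2 were higher and 3 lower with LPS. The part of all these lists in the liver values was not tested.

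Markers of other cells differed between the brain groups as well. Skeletal muscle genes (4 of 6) summed to 3749 to 4086 with LPS plus genipin, 3416 to 3680 with LPS and 112506 to 118985 in mock. Choroid plexus genes (4 of 4) summed to 69132 to 69507 with LPS plus genipin, 3980 to 4853 with LPS and 66461 to 67071 in mock. The transport protein gene Ttr, saturated with LPS plus genipin and in mock, made up nearly all of the choroid plexus sums in those groups. Of the 4 choroid plexus genes, 1 was higher and 2 lower with LPS than in mock, with a median of -0.37, and 4 were higher with LPS plus genipin than with LPS. Folr1 lay at the floor on all LPS and mock arrays. Microglia genes (4 of 5) summed to 7573 to 7887 with LPS plus genipin, 4141 to 4319 with LPS and 10397 to 10893 in mock. All 4 were lower with LPS than in mock (median -1.45), and all 4 were higher with LPS plus genipin than with LPS (median 0.89). Monocyte and macrophage genes (7 of 8) summed to 19015 to 19953 with LPS plus genipin, 11613 to 14508 with LPS and 19727 to 21125 in mock. Endothelial genes (7 of 8) summed to 6595 to 7171 with LPS plus genipin, 5806 to 6211 with LPS and 7932 to 8003 in mock. Both of those lists were thus lowest with LPS, where 6 of 7 genes of each were lower than in mock. Neutrophil genes (4 of 8) summed to 4256 to 4321 with LPS plus genipin, 3638 to 4118 with LPS and 1954 to 2008 in mock. That list was split: 2 genes were higher and 1 lower with LPS than in mock, and LPS plus genipin against mock gave the same counts. The part of any of these lists in the brain values of Ppp1r15a and Atf4 was not tested.

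Sesn2, which restrains mTORC1 when leucine is short, was also dim, with percentiles of 5.3, 18.4 and 7.6 in brain, heart and kidney. In kidney it read 355, 366 and 380 with LPS plus genipin, 391, 390 and 365 with LPS, and 350, 331 and 341 in mock. LPS was above mock on every array, by 0.17 ± 0.04 (adjusted p = 0.0114), while LPS plus genipin overlapped LPS. No difference passed in heart, where the arrays spanned 449 to 681, or in brain, where they spanned 236 to 352 and 1 LPS array lay under the floor.

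**Figure D3:**
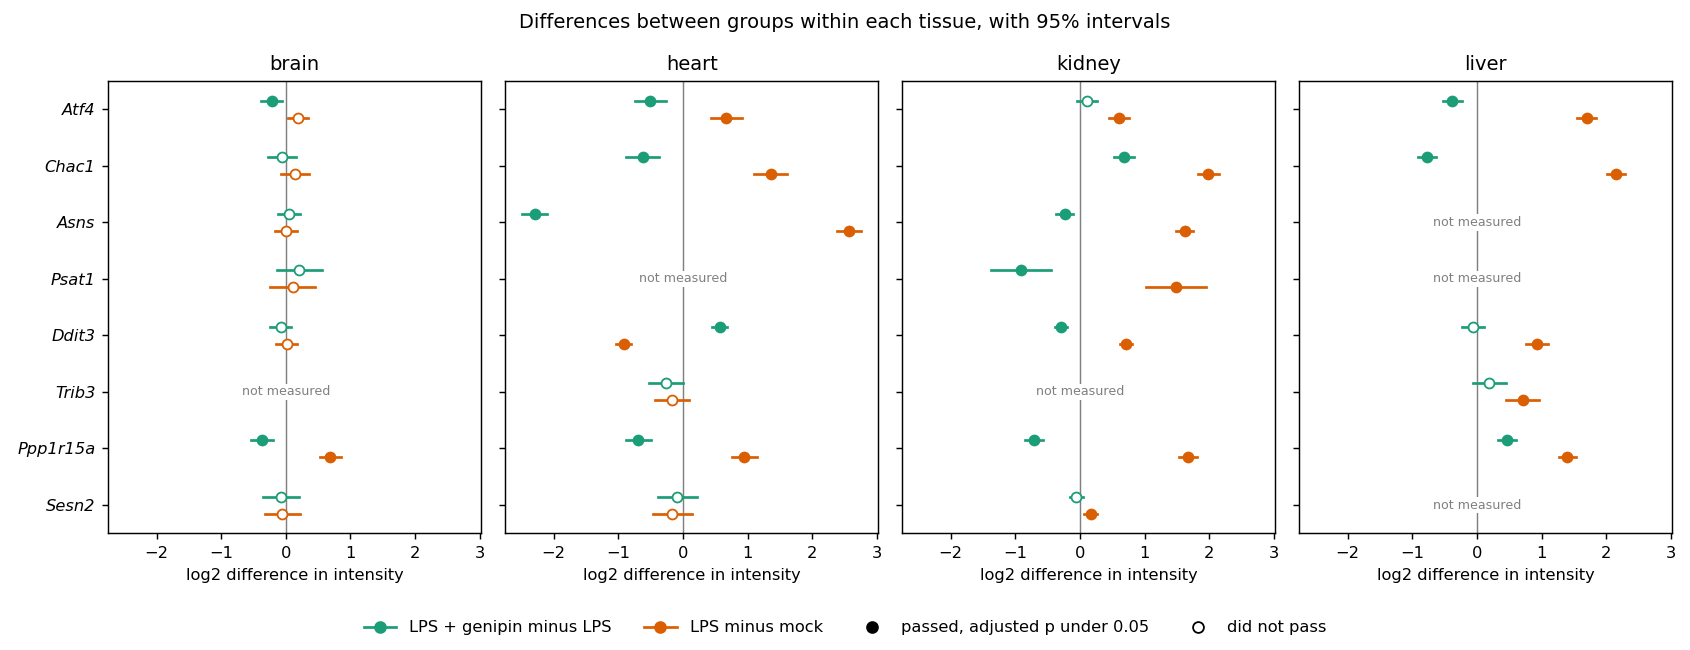
Log2 difference in intensity (x axis, 95% intervals) of LPS plus genipin minus LPS and of LPS minus mock for 8 genes in each tissue, with filled points for adjusted p under 0.05. The green points are on the right of 0 and filled for Ddit3 in heart, Chac1 in kidney and Ppp1r15a in liver, and LPS minus mock is below 0 and filled for Ddit3 in heart alone among the measured genes.

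The tissues differed in these effects. An F test over tissues asked whether the log2 difference was the same in each tissue where a gene was measured. For LPS against mock, 7 of 8 members differed, all but Sesn2 (adjusted p = 0.16), where 77% of genes measured in all 4 tissues, 62.1% of those in brain, heart and kidney, 44.6% of those in heart and liver and 49% of those in brain and kidney differed. For LPS plus genipin against LPS, again 7 of 8 differed, with Sesn2 at an adjusted p of 0.988, where the shares over all genes were 74.5%, 62.8%, 44% and 44%. Such shares make a tissue difference common among all genes. Asns had the widest range in the LPS effect, 2.56 on the log2 scale between brain and heart (adjusted p = 1.17e-14), followed by Chac1 with 2.01 (adjusted p = 5.8e-14) and Ddit3 with 1.85 (adjusted p = 1.3e-16). Genipin effects spanned 2.34 for Asns, 1.46 for Chac1 and 1.18 for Ppp1r15a (adjusted p = 3.29e-14, 1.81e-10 and 1.09e-10). For Trib3, the difference between heart and liver in the genipin effect had an adjusted p of 0.0364 and was lost on leaving out heart LPS array 1 or 2, heart LPS plus genipin array 1 or 2, liver LPS array 3, or liver LPS plus genipin array 1 or 3, at adjusted p of 0.0599 to 0.0957.

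Set against mock, LPS plus genipin still showed most members higher in kidney and liver. In liver 5 of 5 members were higher than in mock (28.5% of all genes were higher and 32.5% lower). In kidney 5 of 7 were higher and 0 lower (20.1% and 24.3%), with Psat1 and Sesn2 not passing. In heart 1 of 7 was higher, Chac1, and 2 lower, Ddit3 and Trib3 (7.55% and 12.3%). In brain 1 of 7 was higher, Ppp1r15a, and 0 lower (8.87% and 5.57%). In heart Asns was 1.21-fold above mock and Ppp1r15a 1.20-fold, both with no overlap of arrays and adjusted p of 0.0511 and 0.0628, just short of the threshold. With only the 6 arrays of these heart groups fitted, both passed, at adjusted p of 0.0494 and 0.0461, and 5 members were called in place of 3. Asns also passed under 5 other settings, at adjusted p of 0.0406 to 0.0494: a floor at the 10th percentile, no genes under the 25th percentile, repeated quantile normalization, median centring and the mean of all probes.

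Other genes of the pathway were counted in lists grouped by function, which were chosen with earlier results of these data known. Of the eIF2 kinases, phosphatase parts and eIF2B subunits, 4 of 15 measured genes rose and 3 fell with LPS against mock in heart, 2 rose and 3 fell of 15 in kidney, 6 rose and 3 fell of 15 in liver, and 3 rose and 2 fell of 16 in brain, with median log2 differences of 0.19, -0.03, 0.08 and 0.10. Of all genes, 18.2% rose and 29.1% fell in heart, 25.2% and 39.2% in kidney, 29.3% and 37.1% in liver, and 16.4% and 17.5% in brain. Eif2ak2, the kinase PKR, which senses double-stranded RNA and is induced by interferon, rose by 2.76 ± 0.10 in liver, 2.69 ± 0.08 in kidney, 2.00 ± 0.08 in heart and 0.88 ± 0.11 in brain (adjusted p = 1.98e-07, 5.32e-08, 3.36e-07 and 0.000812). With LPS plus genipin it stood lower than with LPS in all 4 tissues, at -1.70, -1.17, -1.47 and -0.78. Eif2ak3, the ER stress kinase PERK, rose by 1.72 ± 0.08 with LPS in liver (adjusted p = 7.79e-07), and with LPS plus genipin it was a further 0.30 ± 0.08 higher (adjusted p = 0.0174). Eif2ak4, the amino acid sensor GCN2, rose by 0.58 ± 0.12 with LPS in liver (adjusted p = 0.00286). Over the whole list, LPS plus genipin against LPS gave 2 higher and 4 lower in heart, 3 higher and 3 lower in kidney, 4 higher and 2 lower in liver, and 1 higher and 6 lower in brain. Of all genes in that comparison, 22.1% were higher and 19.9% lower in heart, 32.1% and 22.6% in kidney, 29.5% and 24.5% in liver, and 16.3% and 13.8% in brain.

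Aminoacyl-tRNA synthetases, which charge tRNAs and include many ATF4 targets, rose without a fall in liver and kidney: 11 of 17 and 9 of 17 measured genes were higher with LPS than in mock, with median log2 differences of 0.39 and 0.20, while 29.3% and 25.2% of all genes rose there and 37.1% and 39.2% fell. In heart 5 of 17 rose and 1 fell, beside 18.2% and 29.1% of all genes, and in brain 2 rose and 1 fell, beside 16.4% and 17.5%. Wars, the tryptophan synthetase, which interferon gamma also induces, rose by 1.46 ± 0.06 in liver, 0.99 ± 0.06 in kidney and 1.66 ± 0.06 in heart. Yars rose by 1.11 ± 0.09 in liver and Aars by 0.56 ± 0.12 in kidney. With LPS plus genipin against LPS, 5 of 17 fell and 1 rose in liver, 6 fell and 1 rose in kidney, and 6 fell and 0 rose in heart, with Wars at -0.98, -0.81 and -1.34. Of all genes 24.5% fell and 29.5% rose in liver, 22.6% and 32.1% in kidney, and 19.9% and 22.1% in heart. In brain 2 rose and 2 fell, beside 16.3% and 13.8% of all genes.

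Of the amino acid transporters, 5 of 8 measured genes rose with LPS against mock in heart and 0 fell, 4 of 6 rose and 1 fell in kidney, 4 of 6 rose and 0 fell in liver, and 1 of 9 rose and 1 fell in brain, with median log2 differences of 0.66, 0.87, 0.84 and -0.05. The shares of all genes that rose were 18.2%, 25.2%, 29.3% and 16.4%, and those that fell 29.1%, 39.2%, 37.1% and 17.5%. Slc7a5, the light chain of the large neutral amino acid exchanger, rose by 1.60 ± 0.11 in heart and 1.04 ± 0.17 in kidney, and the glutamine carrier Slc1a5 by 1.56 ± 0.05 in heart. Slc6a9, a glycine carrier, rose by 1.45 ± 0.07 in kidney and 1.35 ± 0.09 in liver, and Slc38a2, a carrier of small neutral amino acids, by 1.43 ± 0.07 in liver. In heart 5 of 8 fell and 1 rose between LPS plus genipin and LPS (19.9% and 22.1% of all genes), with Slc7a5 at -1.36 and Slc1a5 at -1.05. In kidney 3 of 6 fell and 1 rose (22.6% and 32.1%), and in liver 3 fell and 1 rose (24.5% and 29.5%), with Slc6a9 at -0.81 and -0.60. In brain 2 of 9 rose and 0 fell (16.3% and 13.8%). In liver Slc1a4 was the riser, 0.71 ± 0.07 higher with LPS plus genipin (adjusted p = 9.27e-05).

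Enzymes of amino acid and one-carbon synthesis moved in both directions in kidney, liver and heart. Against mock, LPS raised 4 and lowered 4 of 10 in kidney, raised 2 and lowered 2 of 8 in liver, raised 4 and lowered 2 of 8 in heart, and raised 2 of 10 in brain with 0 lower, with medians of -0.02, -0.07, 0.27 and -0.01. All genes were raised and lowered at 25.2% and 39.2% in kidney, 29.3% and 37.1% in liver, 18.2% and 29.1% in heart, and 16.4% and 17.5% in brain. The mitochondrial folate genes were among the risers: Mthfd2 by 1.64 ± 0.07 in kidney and 0.80 ± 0.08 in brain, Mthfd1l by 1.36 ± 0.06 in kidney and 1.23 ± 0.11 in heart, and Aldh1l2 by 1.00 ± 0.09 in heart. The cytosolic folate genes Shmt1 and Mthfd1 fell in liver, at -1.05 ± 0.10 and -0.87 ± 0.10. Between LPS plus genipin and LPS, 5 of 10 fell and 1 rose in kidney, 3 of 8 fell and 1 rose in heart, 2 of 8 fell and 1 rose in liver, and 2 of 10 rose with 0 lower in brain. The shares of all genes that fell and rose were 22.6% and 32.1% in kidney, 19.9% and 22.1% in heart, 24.5% and 29.5% in liver, and 13.8% and 16.3% in brain. Aldh1l2 was lower with LPS plus genipin in heart, kidney and liver, at -1.28, -0.72 and -0.68.

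Among other ATF4 targets of transcription and stress, 9 of 13 measured genes rose and 3 fell with LPS in kidney, 9 of 14 rose and 1 fell in liver, 6 of 15 rose and 5 fell in heart, and 5 of 11 rose and 1 fell in brain, with medians of 0.83, 0.33, -0.16 and 0.12. Of all genes 25.2% rose and 39.2% fell in kidney, 29.3% and 37.1% in liver, 18.2% and 29.1% in heart, and 16.4% and 17.5% in brain. Ddit4, an mTORC1 inhibitor also induced by glucocorticoids, rose by 3.47 ± 0.06 in liver and 2.52 ± 0.09 in kidney. Gdf15, a stress cytokine, rose by 2.71 ± 0.09 in liver and 1.99 ± 0.06 in kidney, but in heart it was lower, at -1.88 ± 0.12 (adjusted p = 7.61e-06), as Ddit3 was. Atf3 rose by 2.54 ± 0.10 and Nupr1 by 2.26 ± 0.10 in heart. Between LPS plus genipin and LPS in heart, 5 rose and 4 fell, with Nupr1 at -2.38, Atf3 at -1.55 and the ER-stress gene Herpud1 at 0.97. In kidney 4 rose and 5 fell, with Atf3 at -2.13, in liver 4 rose and 3 fell, with Ddit4 at -0.83 and the autophagy receptor Sqstm1 at 1.59, and in brain 1 rose and 3 fell. All genes rose and fell at 22.1% and 19.9% in heart, 32.1% and 22.6% in kidney, 29.5% and 24.5% in liver, and 16.3% and 13.8% in brain.

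ER chaperones and other targets of ATF6 or XBP1, which serve the parallel arms of the unfolded protein response, showed 1 of 15 higher and 1 lower with LPS in heart, beside 18.2% and 29.1% of all genes. In liver 8 of 17 rose and 4 fell (29.3% and 37.1% of all genes), with Dnajb9 at 2.20 ± 0.07 and Syvn1 at 1.44 ± 0.06, both of which act in ER-associated degradation. In kidney 3 of 16 rose and 4 fell (25.2% and 39.2%), and in brain 0 of 16 rose and 4 fell (16.4% and 17.5%). With LPS plus genipin against LPS, 11 of 17 fell and 1 rose in liver, 10 of 16 fell and 0 rose in kidney, and 7 of 15 fell and 1 rose in heart, with median log2 differences of -0.30, -0.35 and -0.26. The shares of all genes that fell there were 24.5%, 22.6% and 19.9%, and those that rose 29.5%, 32.1% and 22.1%. Creld2 and Manf, secreted ER-stress proteins, were lower in all 3: Creld2 at -0.88, -0.83 and -0.58 and Manf at -0.64, -0.53 and -0.69 in liver, kidney and heart. In brain 2 rose and 2 fell (16.3% and 13.8%).

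**Figure D4:**
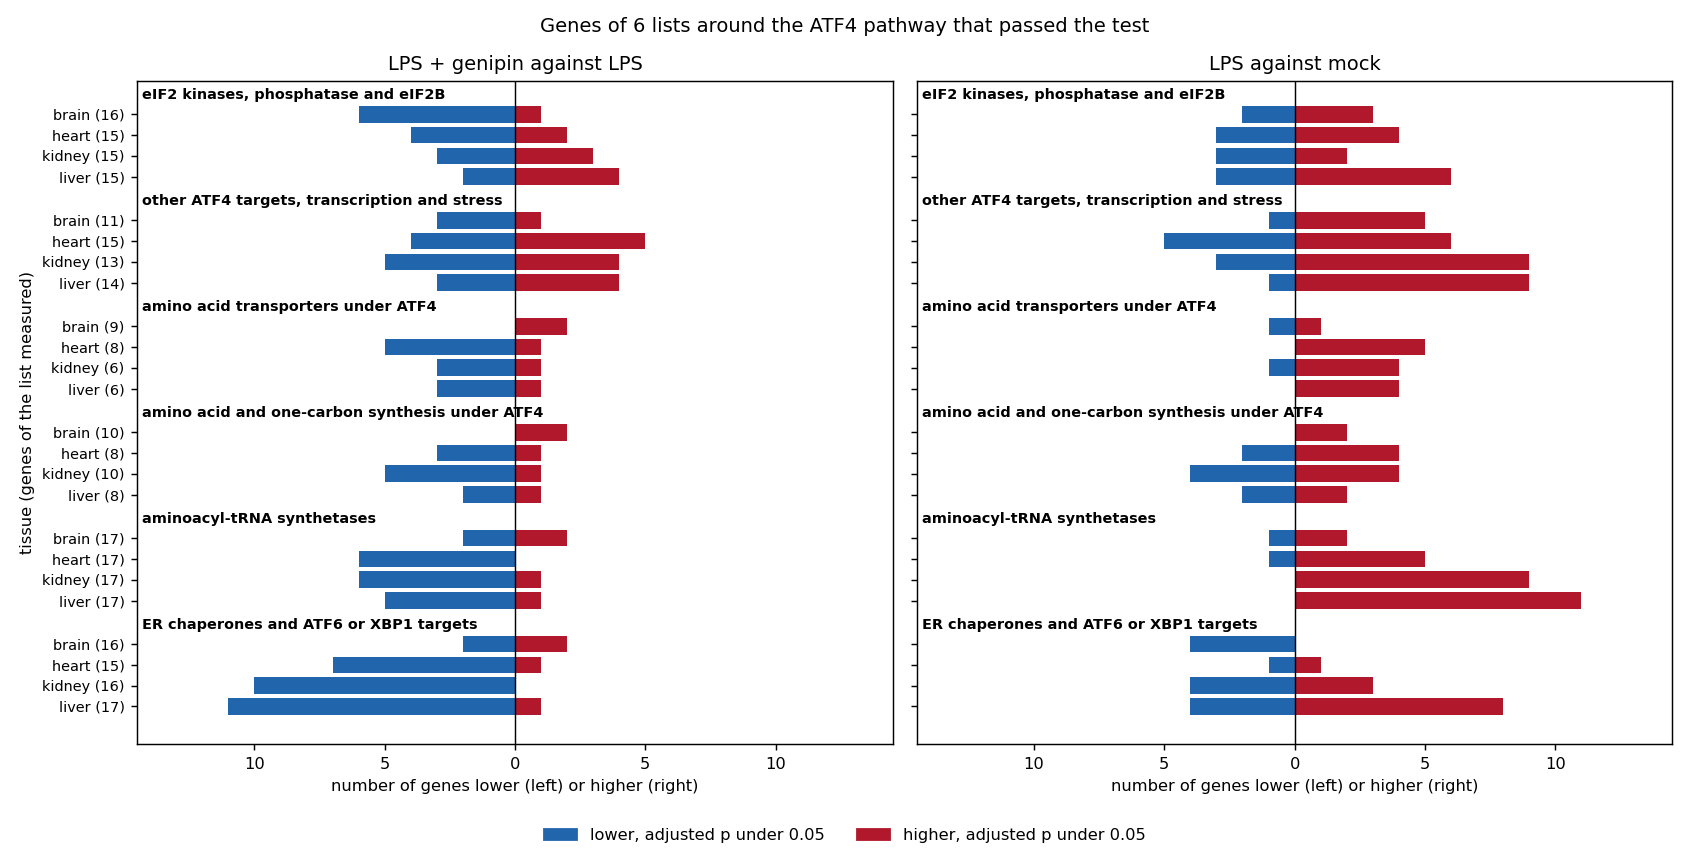
Number of genes (x axis) that were lower (blue, left of 0) or higher (red, right of 0) at adjusted p under 0.05, for 6 lists around the ATF4 pathway in each tissue, with the number measured in brackets. With LPS plus genipin against LPS the ER chaperone list has 11 lower and 1 higher in liver, and with LPS against mock the tRNA synthetase list has 11 higher and 0 lower there.

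For the 4 members measured in every tissue, the likest genes were sought by the correlation of log2 intensity over the 36 arrays after each tissue's mean was subtracted, among 6693 other genes. The arrays share groups and normalization, so r is a description. Atf4 was most like Retnlg (r = 0.965), Pgs1 (0.948) and Ptpn1 (0.946). Chac1 was most like Plek (0.954), Vav1 (0.936) and Fcer1g (0.933). Ppp1r15a was most like Nfkb2 (0.963), Klf6 (0.954) and Rela (0.952). Ddit3 was most like Ung (0.941), Jam2 (0.897) and Rapgef2 (0.883). Markers of several cell types, neutrophils among them, also moved with the groups, and their part in these correlations was not tested.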

How the data were processed

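Per the labels' protocols, 5 µg of total RNA was amplified, labelled with Cy5 and hybridised. The authors deposited normalized linear intensities. Sorted values were nearly equal over the 9 arrays of a tissue, which is what quantile normalization per tissue leaves. The submitters' processing notes name limma without a version. The background correction, and the filter by which probes lack values in whole tissues, were not given in the sources used here.

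Here intensities were raised to a floor at the 5th percentile of all values (263) and converted to log2. No member was near saturation (60000). Of 18183 probes, 14817 had 1 gene symbol and 3366 none. Symbols were updated through the RefSeq table of GRCm38.p6, and a gene's probe with the highest mean was kept. Each tissue's 9 arrays were fitted in limma 3.58.1 (R 4.3.3; lmFit, eBayes) and p-values adjusted by the Benjamini-Hochberg method over all its genes, with 0.05 as threshold. F tests among tissues used the arrays of the tissues where a gene had values and treated them as independent. Whether organs came from the same mice was not given in the sources used here. The estimated correlation between tissues of arrays with the same treatment and number was 0.0913 over all 4 tissues. It was 0.244 for heart and liver, 0.043 for brain, heart and kidney, and 0.015 for brain and kidney. Scripts were tested on simulated data. Figures came from matplotlib 3.10.9 under Python 3.11.15 with numpy 2.4.6 and pandas 2.3.3. The number of arrays, 3 per group, limits the precision; intervals are 95%.

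The members and lists were chosen with earlier results of these data known. All 9 members are named; of each list up to 4 called genes with the largest log2 difference per comparison were eligible, and for each member measured in all 4 tissues the 3 most similar genes. Replicate numbers shared by groups were taken to pair arrays only in brain between LPS plus genipin and LPS, where same-numbered arrays correlated at 0.143 to 0.191 in their deviations from group means. Some arrays with different numbers correlated more strongly. LPS plus genipin array 1 and LPS array 3 gave 0.592 in heart and 0.589 in liver. LPS plus genipin array 3 and LPS array 1 gave 0.564 in heart and 0.452 in liver. The source of this was not tested, and no block was fitted for it. Alternatives varied the floor, filter, probe choice, normalization, variance model, samples in the fit and block, and left out each array in turn.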

Additional observations from a re-analysis of the deposited data

Results flagged for a closer look

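The effects below differed among tissues by the F test, adjusted over all genes tested on the same tissues. Each value is the range of a gene's log2 difference over the tissues where it was measured. Such calls were common: for LPS against mock, 77% of all genes differed over 4 tissues and 62.1% over brain, heart and kidney. Between heart and liver 44.6% differed, and between brain and kidney 49%. The shares for LPS plus genipin against LPS were 74.5%, 62.8%, 44% and 44%. For LPS against mock the range was 1.51 for Atf4 (brain lowest, liver highest, adjusted p = 2e-11), 2.01 for Chac1, 1.85 for Ddit3 and 0.98 for Ppp1r15a over 4 tissues. It was 2.56 for Asns over brain, heart and kidney, 0.87 for Trib3 between heart and liver, and 1.37 for Psat1 between brain and kidney. For LPS plus genipin against LPS it was 0.61 for Atf4 (adjusted p = 0.000217), 1.46 for Chac1, 0.86 for Ddit3 and 1.18 for Ppp1r15a over 4 tissues, 2.34 for Asns over 3, 0.45 for Trib3 and 1.12 for Psat1. Beside these, the direction itself differed: Ddit3 was lower with LPS than in mock in heart and higher in kidney and liver, Chac1 was higher with LPS plus genipin than with LPS in kidney and lower in heart and liver, and Ppp1r15a was higher in liver and lower in brain, heart and kidney.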

How the results depend on the processing

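No called difference changed direction under any alternative run. For LPS plus genipin against LPS in brain the members called numbered 1 in place of 2 with no floor, with log2(intensity + 100), without genes under the 25th percentile, with arrays centred on their median, with an intensity trend and robust variance, with the replicate block and with only the 6 arrays compared, and 1 to 2 on leaving out each array; the call lost was Atf4, and the cause was not tested. For LPS plus genipin against mock the brain count was 0 in place of 1 on leaving out any of the 6 arrays compared, and the heart count with only the 6 arrays was 5 in place of 3. The other counts stayed within 1.5 times. The replicate block changed no other call in the paired comparison. Elsewhere shared numbers were not taken as pairs, and with the block Trib3 in heart (LPS plus genipin against mock) lost its call at an adjusted p of 0.0901, the among-tissue test of Trib3 lost its call at 0.0609, and Psat1 in kidney passed at 0.0348. Of 1233 recomputed differences of single genes 23 lost and 17 gained a call, and 14 uncalled ones changed sign. Trib3 and Sesn2 were dim, and the filter at the 25th percentile removed both in every tissue.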
